A study of Marchantia polymorpha and Arabidopsis thaliana with 40 samples.

Results

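Chromatin accessibility after heat was compared between eTK, an Arabidopsis thaliana knockout of hsfa1a, hsfa1b and hsfa1d, and the wild type Col-0, both after 1 h at 37 °C. Every one of the 110628 accessible regions in the Arabidopsis count table was compared, in 4 heated libraries of the 40 in the series, 2 per genotype. The 1076 regions with 3 or fewer counts summed over both unheated eTK libraries were set apart, which left 109552. The choice of these regions used the unheated libraries and none of the heated ones.

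The series profiled heat shock factors in the liverwort Marchantia polymorpha and in Arabidopsis by ATAC-seq, an assay that reads open DNA from where the enzyme Tn5 can insert adapters. The 4 Arabidopsis groups were Col-0 and eTK at 22 °C and Col-0 and eTK heated for 1 h at 37 °C. All were whole seedlings of day 7 grown under continuous light, carried the label of batch 1, and gave 50000 DAPI-stained sorted nuclei per library from 1.5 g of tissue. The labels name a single eTK line, and neither the accession in which each mutant allele arose nor a rescued line is given in the sources used here. Arabidopsis has a further gene of the same class, HSFA1E, which the labels do not list among the knockouts. The labels do not say that the 2 libraries of a group came from separate plants, so p-values measure the spread between these samples, which may be technical.

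HSFA1 proteins are class A heat shock factors, the activators that stand at the start of the plant heat shock response. In unstressed cells they are held inactive by chaperones, and on heating they are released, enter the nucleus and bind heat shock elements in the promoters of chaperone genes and of further heat shock factors. Plant centromeres lie within pericentromeric heterochromatin, which is rich in repeats and methylated DNA and is usually closed, whereas the gene-rich chromosome arms hold most open promoters. No annotation of the build was used here, so regions are named by chromosome, start and end as the table gives them, without gene, exon or UTR. For the same reason no region was read at HSFA1A, HSFA1B, HSFA1D or a heat shock gene, and the genotype labels were not checked through the knocked-out genes.

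Library totals were 19.6 M and 22.3 M counts in heated Col-0, 33.2 M and 35.5 M in heated eTK, and 33.5 M to 38.7 M in the 4 unheated libraries. The median count per region was 72 and 84 in heated Col-0 against 199 and 212 in heated eTK, and the heated Col-0 libraries were the shallowest of the 8. Counts of both replicates ranked regions alike in heated Col-0, with a Spearman correlation across regions of 0.965, and in heated eTK, with 0.971. The TMM factors, which scale libraries so that most regions balance, were 0.697 and 0.715 in heated Col-0 and 1.09 to 1.15 in the other 6 libraries. The part of the lower depth and of these factors in the differences was not tested, and values under other scalings are given where they matter.

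Accessibility differed between the heated genotypes in most regions. At an adjusted p under 0.05 in edgeR's quasi-likelihood test, 83234 regions differed, 75.2% of those tested. Of these, 41287 were higher in heated eTK (37.3%) and 41947 were lower (37.9%). The lower side held the larger changes, since 30834 regions were over 2-fold lower (27.9%) and 15681 over 2-fold higher (14.2%). Both heated eTK values lay above both heated Col-0 values in 49678 regions (44.9%) and below both in 45506 (41.1%). Without the regions set apart, 82158 regions passed, 41287 higher and 40871 lower, and 29758 of them were over 2-fold lower. Scaling to the library totals alone moved the median difference over all regions from 0.11 to 0.80 on the log2 scale, and then 67719 regions were higher and 30865 lower, with 46534 over 2-fold higher and 12926 over 2-fold lower. More than 2-fold lower regions therefore outnumber higher ones under TMM and not under total counts. The spread between regions is the same under both, since each scales a library by a single factor.

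In unheated seedlings the genotypes differed far less. The unheated log2 differences come from 4 libraries that the heated log2 differences do not use. The tests of both share an estimate of the spread from all 8 libraries, so their calls are not independent. The same test between unheated eTK and unheated Col-0 called 22099 regions (20%), 7302 higher (6.6%) and 14797 lower (13.4%). Only 400 were over 2-fold higher (0.362%) and 3174 over 2-fold lower (2.87%). The share of these calls that were higher was 33% under TMM, 11.6% with DESeq2, 43.2% with loess offsets, 47.5% with TMM factors from arm regions and 53.1% with total counts. Leaving out a single unheated library lowered the count to 11784 without Col-0 replicate 1, 12726 without Col-0 replicate 2, 14103 without eTK replicate 1 and 13147 without eTK replicate 2.

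The heated differences fell into a pair of humps. Over the 109552 regions not set apart, the fullest bin of the upper hump, from 0.25 to 0.50 on the log2 scale, held 12222 regions. The fullest bin of the lower hump, from -1.75 to -1.50, held 7097, and the trough between them, from -0.75 to -0.50, held 4244. The middle 50% of heated differences spanned 1.81 log2 units, from -1.11 to 0.70, against 0.38 for the unheated differences. Heated differences computed from the CPM of replicate 1 and of replicate 2 alone correlated at 0.94 across regions. On that measure, heated differences of replicate 1 and unheated differences of replicate 2 correlated at 0.58. The edgeR heated and unheated differences, which share no library, correlated at 0.62 across regions, and regions are not independent replicates. Heated differences were below -5.75 in 80 of these regions and unheated ones in 103. The weight of such extreme regions in the correlations was not tested.

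**Figure D1:**
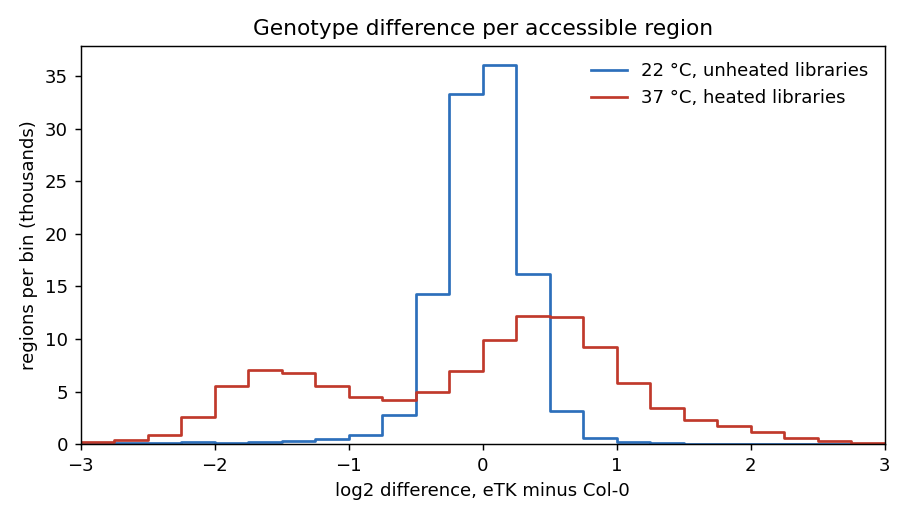
Number of regions in bins of 0.25 by log2 difference between eTK and Col-0, for the heated libraries (red) and the unheated libraries (blue), over the 109552 regions not set apart. The heated differences form a lower hump that is fullest from -1.75 to -1.50 and an upper hump that is fullest from 0.25 to 0.50, while the unheated differences form a single narrow peak near 0.

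Regions over 2-fold lower in heated eTK had high values in heated Col-0 alone among the 4 groups. The median over these 29758 regions was 20.9 and 20.7 CPM (counts per 10 to the power of 6 library counts, TMM-scaled) in heated Col-0 and 6.49 and 6.8 CPM in heated eTK. It was 8.05 and 8.01 CPM in unheated Col-0 and 6.52 and 6.41 CPM in unheated eTK. Regions over 2-fold higher in heated eTK had their lowest median in heated Col-0, at 1.98 and 2.01 CPM. Their median was 5.51 and 5.18 CPM in heated eTK, 3.85 and 3.87 CPM in unheated Col-0, and 4.69 and 4.77 CPM in unheated eTK. These levels describe regions that were chosen by the heated comparison. The lower regions had a median width of 247 bases and the higher ones of 165 bases, against 179 over all regions. Within 2 Mb of a centromere centre lay 3.9% of these lower regions and 58.7% of the higher ones, where 14.7% of all regions lie. The 3.9% leaves out the regions set apart, which were all lower. With them, 1740 of the 30834 regions over 2-fold lower were centromeric.

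Whether the genotype difference at 37 °C departed from that at 22 °C was tested by the interaction, the heat response of eTK minus that of Col-0. It passed in 64977 regions (58.7%), 28454 higher (25.7%) and 36523 lower (33%). With total count scaling it passed in 85765, of which 72.1% were higher, against 43.8% of the calls under TMM and 55% with TMM factors from arm regions. The Col-0 heat response itself passed in 74671 regions (67.5%), 38003 higher (34.4%) and 36668 lower (33.1%), and the eTK heat response in 8772 (7.93%), 4398 higher (3.98%) and 4374 lower (3.95%). Over 2-fold, Col-0 had 25054 regions higher with heat (22.6%) and 8951 lower (8.09%), and eTK had 115 higher (0.104%) and 35 lower (0.0316%). The balance of the Col-0 response depended on scaling, since total counts moved its median from -0.12 to -0.75 and gave 8497 regions over 2-fold higher and 40095 over 2-fold lower, with 28.1% of all calls higher against 50.9% under TMM. The eTK count was 2417 and 3951 without unheated eTK replicates 1 and 2, 5341 and 3985 without heated eTK replicates 1 and 2, and 3452 with DESeq2. DESeq2 gave 49331 regions no adjusted p in the eTK heat response. The interaction and the heat responses of both genotypes share heated libraries with the comparison of the heated genotypes, so their counts are given side by side.

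Regions are called regions with counts in eTK here if they had at least 50 counts over both unheated eTK libraries. That limit is low, since the median count per region was 199 in each of these libraries. Such regions also lay in 1 Mb windows that hold no region set apart, outside a stretch of chromosome 2 described further on. The region with the lowest interaction among them lay on chromosome 5 from 21846053 to 21846389. It had 22.3 and 20.9 CPM in heated Col-0, against 1.77 and 1.74 CPM in heated eTK, 1.38 and 1.11 CPM in unheated Col-0, and 1.53 and 1.69 CPM in unheated eTK. The heated Col-0 libraries stood above all 6 others, which lay between 1.11 and 1.77 CPM. Its heated difference was -3.62 ± 0.17 (log2, SE, adjusted p = 6.55e-38), its unheated difference 0.36 (adjusted p = 0.264), and its interaction -3.98 ± 0.29 (adjusted p = 1.35e-23).

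A region on chromosome 4 from 17441938 to 17442156 showed the same order of values. Its level was 12.3 and 14.6 CPM in heated Col-0 and 0.953 and 1.37 CPM in heated eTK, with 0.855 and 0.92 CPM in unheated Col-0 and 0.984 and 1.22 CPM in unheated eTK. Again the heated Col-0 pair stood apart from the other 6 libraries, with a heated difference of -3.52 ± 0.22 (adjusted p = 4.94e-28) and an interaction of -3.84 ± 0.37 (adjusted p = 1.25e-16). On the same chromosome, the region from 13819988 to 13820157 had 18.8 and 15.9 CPM in heated Col-0 and 1.4 and 1.89 CPM in heated eTK. Its unheated values were 1.35 and 1.62 CPM in Col-0 and 1.48 and 1.75 CPM in eTK, and its interaction was -3.50 ± 0.30 (adjusted p = 2.35e-19). On chromosome 2, the region from 15447671 to 15447912 was open at a higher level in all groups, with 29.4 and 27.7 CPM in heated Col-0 and 3.89 and 3.53 CPM in heated eTK. Its unheated values were 3.66 and 3.6 CPM in Col-0 and 4.4 CPM in both eTK libraries, and its interaction was -3.22 ± 0.20 (adjusted p = 4.79e-28). The other 4 of the 8 lowest interactions lay on chromosome 1 from 1493759 to 1493943, from 731497 to 731595 and from 10546411 to 10546541, and on chromosome 5 from 23126940 to 23127104, with interactions of -3.38, -3.28, -3.24 and -3.20. In each of these 8 regions the heated Col-0 pair lay above every other library, and neither the unheated difference (adjusted p of 0.177 to 0.975) nor the eTK heat response (0.321 to 0.956) passed the threshold. These 8 were the lowest of the regions that passed that filter and the limits for naming, by a rule added after values had been seen. Ranking by the interaction favours high heated Col-0 values beside flat values in the other groups, so this pattern is a description.

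The lowest heated differences among regions with counts in eTK were found in regions that were already lower in unheated eTK. The lowest lay on chromosome 1 from 1559729 to 1560133, with 57.6 and 54 CPM in heated Col-0 and 2.25 and 1.82 CPM in heated eTK. Unheated Col-0 had 15.4 and 14.7 CPM and unheated eTK 1.4 and 1.59 CPM. Both eTK pairs lay below both Col-0 pairs, and the heated difference was -4.78 ± 0.12 (adjusted p = 9.68e-61), the unheated one -3.33 (6.09e-42) and the interaction -1.45 ± 0.21 (5.13e-09). On chromosome 1, the regions from 1142936 to 1143338 and from 1193750 to 1194067 had heated differences of -4.37 and -4.20. The lowest of chromosome 3, at 16559480 to 16559790, had 67.2 and 64.8 CPM in heated Col-0 and 4.05 and 4.22 CPM in heated eTK, with 20.6 and 19.3 CPM in unheated Col-0 and 4.25 and 4.07 CPM in unheated eTK. The eTK values of that region were alike with and without heat, and its heated difference was -3.99 ± 0.10 (adjusted p = 1.48e-60). Of the 8 lowest, 5 lay on chromosome 3. All 8 passed in the unheated comparison, with differences of -1.63 to -3.42, and all 8 had a lower interaction, with adjusted p up to 0.00458.

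Regions over 2-fold lower at both temperatures were unevenly spread. Of the 29758 regions over 2-fold lower in heated eTK, 1671 (5.62%) were also over 2-fold lower in unheated eTK, and these were 79.6% of the 2098 regions over 2-fold lower there, regions set apart left out. Of the regions over 2-fold higher, 345 were so at both temperatures, 2.2% of the 15681 heated ones and 86.2% of the 400 unheated ones. In the 1 Mb windows that hold no region set apart, 469 regions were over 2-fold lower at both temperatures (0.663%), and the other 1202 lay in windows that hold one. The windows of chromosome 3 from 16 to 18 Mb held 204 of these 469 (43.5%) and 3.13% of the regions in windows without a region set apart. There, 135 of 1051 regions (12.8%) lay from 16 to 17 Mb and 69 of 1160 (5.95%) from 17 to 18 Mb. The window of chromosome 2 from 3 to 4 Mb, which holds the stretch described further on, had 45 of 738 (6.1%).

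Regions were ranked here if they had a mean of at least 50 counts over the heated libraries and heated pairs that did not overlap. Within these limits, the 8 highest heated differences all lay within 2 Mb of a centromere centre. All 8 reached that mean through heated eTK, where they are high, so their ranking is a description. Outside these limits, 1 region had a difference of at least 5.75. The highest was on chromosome 4 from 3848153 to 3848223, with 0 and 4 counts in heated Col-0 and 125 and 117 counts in heated eTK, which is 0 and 0.251 CPM against 3.31 and 2.87 CPM. Unheated Col-0 had 0.974 and 1.06 CPM and unheated eTK 2.12 and 2.71 CPM. Heated Col-0 was the lowest pair and heated eTK the highest, with a difference of 4.48 ± 0.52 (adjusted p = 2.69e-13) that rests on 4 counts in heated Col-0. It was 3.60 without heated Col-0 replicate 1, and without replicate 2 the heated Col-0 group held 0 counts. On chromosome 2, the region from 3965992 to 3966164 had 0.586 and 0.251 CPM in heated Col-0 against 7.2 and 6.21 CPM in heated eTK. Unheated eTK was high there too, at 5.59 and 5.21 CPM against 0.832 and 1.19 CPM in unheated Col-0, so the heated difference of 4.03 ± 0.31 (adjusted p = 4.3e-22) stood beside an unheated one of 2.43 (9.4e-19). Without heated Col-0 replicate 1 it was 4.72 and without replicate 2 it was 3.51. The other 6 of the 8 highest had heated differences of 3.79 to 4.20 and from 4 to 10 counts over both heated Col-0 libraries. They were narrow, from 76 to 115 bases wide. Among them, the region on chromosome 4 from 3422053 to 3422129 had a difference of 4.61 without heated Col-0 replicate 1 and 3.41 without replicate 2.

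Within the same limits, the 5 highest interactions were also centromeric, and these regions too reached the mean count through heated eTK. The region on chromosome 5 from 11470193 to 11470279 had 0.146 and 0.126 CPM in heated Col-0 and 2.96 and 2.13 CPM in heated eTK, with 1.9 and 1.08 CPM in unheated Col-0 and 1.16 and 1.98 CPM in unheated eTK. The unheated pairs overlapped and the heated pairs did not, and the interaction was 4.13 ± 0.67 (adjusted p = 6.04e-08). The next 4 interactions, on chromosome 4 from 3588050 and from 3422053, on chromosome 3 from 13284563 and on chromosome 2 from 4236251, were 3.37 to 3.56. On leaving out each library in turn, these 5 interactions lay between 2.89 and 4.56. Within these limits but beyond 2 Mb from a centromere centre, the highest heated difference was 3.06 ± 0.41 (adjusted p = 9.46e-11), on chromosome 5 from 7035095 to 7035169. That region had 0.513 and 0.251 CPM in heated Col-0 and 3.57 and 2.72 CPM in heated eTK. It was higher in unheated eTK as well, at 2.77 and 2.71 CPM against 1.21 and 0.676 CPM.

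**Figure D2:**
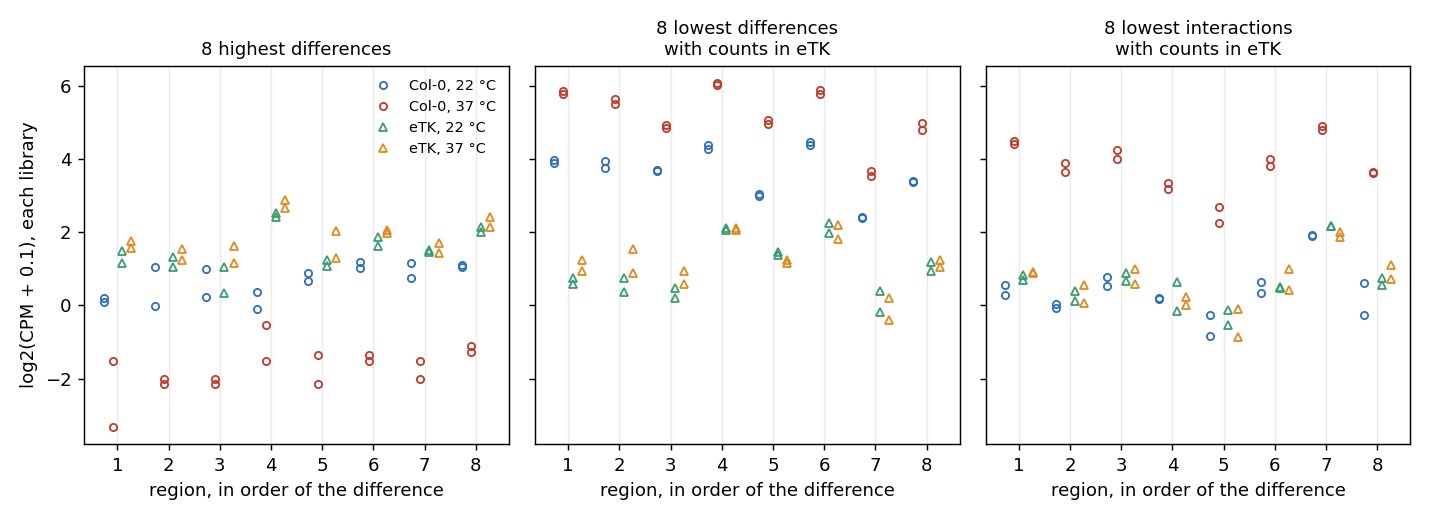
Level in each of the 8 libraries, as log2(CPM + 0.1), for the 8 highest heated differences within the limits for naming, the 8 lowest among regions with counts in eTK and the 8 lowest interactions among the latter. Circles are Col-0 and triangles eTK, 1 symbol per library; the lowest circle of the left panel is a library with 0 counts. Heated Col-0 (red) lies below every other library in the left panel and above every other library in the middle and right panels, and the eTK pairs lie close together.

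Position along the chromosome went with the direction of the heated difference. Within 2 Mb of a centromere centre, the median over 16212 regions was 1.16 on the log2 scale. Of these centromeric regions, 56.8% were over 2-fold higher and 10.7% over 2-fold lower, against 14.2% and 27.9% of all regions. Median levels there were 2.49 and 2.51 CPM in heated Col-0 and 5.29 and 4.93 CPM in heated eTK, against 4.16 and 4.17 CPM in unheated Col-0 and 4.5 and 4.53 CPM in unheated eTK. Heated Col-0 was the lowest pair and heated eTK the highest. These regions took 6.8% and 6.74% of all counts in heated Col-0 and 14.7% and 13.8% in heated eTK, a share that needs no scaling, against 11.6% and 11.7% in unheated Col-0 and 12.8% and 12.9% in unheated eTK. Without the regions set apart, the centromeric median was 1.20, and 7.42% were over 2-fold lower.

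Chromosome ends went the other way under TMM. Within 2 Mb of an end, the median over 15236 regions was -0.71, and it was -0.02 with total count scaling. Of these end regions, 3.77% were over 2-fold higher and 44.6% over 2-fold lower under TMM, against 14.2% and 27.9% of all regions. Median levels there were 7.25 and 7.53 CPM in heated Col-0 and 4.58 and 4.91 CPM in heated eTK, with 5.13 and 5.11 CPM in unheated Col-0 and 4.61 and 4.82 CPM in unheated eTK. Ends took 17.8% and 18.3% of all counts in heated Col-0 and 12.3% and 13.2% in heated eTK. Heated Col-0 thus had the highest share of counts at ends and the lowest near centromeres. The remaining 79180 arm regions had a median of 0.06, which DESeq2 turned to -0.01 and total counts to 0.75, with 7.46% over 2-fold higher and 28.2% over 2-fold lower. The gap between the centromeric and the end median was 1.87 under TMM, DESeq2, total counts and TMM factors from arm regions. Each of these scales a library by a single factor, which moves all regions nearly alike, so an equal gap follows from the method. With loess offsets, which can change it, the gap was 1.60. In the unheated comparison under TMM it was 0.38.

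Pooled over the chromosomes, the heated difference fell with distance from the centromere centre. The median heated difference was 1.72 within 0.5 Mb of a centromere centre, 1.54 from 0.5 to 1 Mb, 0.89 from 1 to 2 Mb, 0.45 from 2 to 3 Mb, 0.20 from 3 to 5 Mb, 0.06 from 5 to 8 Mb and -0.48 beyond 8 Mb. From the chromosome ends it was -1.06 within 0.5 Mb, -0.78 from 0.5 to 1 Mb, -0.41 from 1 to 2 Mb, -0.15 from 2 to 3 Mb and -0.22 from 3 to 5 Mb. In 121 windows of 1 Mb, medians ran from -1.40, on chromosome 5 from 26 to 27 Mb, to 2.02, on chromosome 3 from 13 to 14 Mb. Unheated medians of these windows were -0.28 and 0.37. Window medians over all regions were below 0 in 54 windows and above 0 in 66. Single chromosomes showed steps, as on chromosome 1 from 0.03 at 25 to 26 Mb to -0.74 at 26 to 27 Mb. Not every end was low, since the first windows of chromosomes 2 and 4 had medians of -0.00 and -0.18. The window of chromosome 4 from 4 to 5 Mb, where 147 of 518 regions were set apart, had a median of -0.66 with them and 0.66 without them. On chromosome 5 from 12 to 13 Mb, with 164 of 665 regions set apart, these values were 0.80 and 1.35. The window around the heterochromatic knob on the short arm of chromosome 4, from 1.6 to 2.3 Mb, had a median of 0.98 over 652 regions, with 83.9% higher and 6.6% lower against 37.3% and 37.9% of all regions. Of these regions 317 lie within 2 Mb of the centromere centre, and regions of all chromosomes had medians of 0.89 at 1 to 2 Mb and 0.45 at 2 to 3 Mb from a centre.

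**Figure D3:**
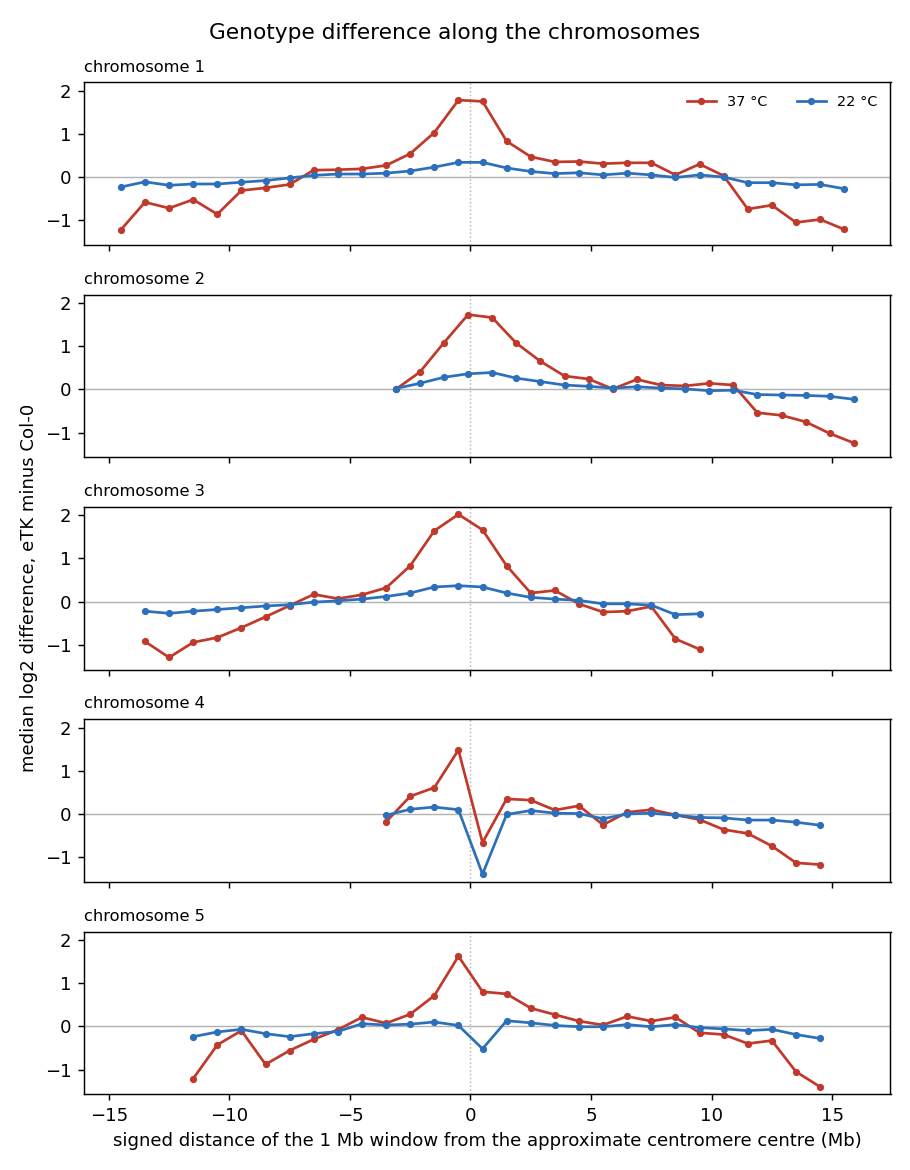
Median log2 difference between eTK and Col-0 in 1 Mb windows of the 5 chromosomes, heated (red) and unheated (blue), by distance of the window from the approximate centromere centre (Mb), regions set apart included. Heated medians reach 2.02 beside the centromeres and -1.40 at the ends; the dip of chromosome 4 next to the centromere is a window where 147 of 518 regions were set apart.

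Neighbouring regions had like differences. Across pairs of adjacent regions less than 200 bases apart, heated differences correlated at 0.73 over 31159 pairs, and from 2000 to 5000 bases apart at 0.38 over 9239 pairs. The same correlations in the unheated comparison were 0.57 and 0.41. Pairs share their libraries, and these values are a description.

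The heated difference also went with the unheated level of a region, taken from libraries that the heated log2 differences do not use. Level is the CPM of a whole region, not divided by its width. Median width rose from 82 bases in the lowest 10% by level to 656 in the highest 10%. In the highest 10% of regions by mean unheated level, the median was 45.5 and 44.3 CPM in heated Col-0 and 22.8 and 22.6 CPM in heated eTK, against 25.1 CPM in both unheated Col-0 libraries and 23.6 and 23 CPM in unheated eTK. Only heated Col-0 stood apart from the rest in these 11063 regions. Their median difference was -0.99, with 49.6% over 2-fold lower and 7.67% over 2-fold higher, against 27.9% and 14.2% of all regions. They took 41.3% and 40.3% of counts in heated Col-0 against 32.9% and 32.8% in heated eTK. In the lower 50% by level, the median difference was 0.24 and the median level 2.93 and 2.95 CPM in heated Col-0 against 3.41 and 3.39 CPM in heated eTK. The median of the highest 10% was -0.30 with total count scaling and 0.14 with loess offsets, which remove a trend with level by their construction. The gap between the lower 50% and the highest 10% was 1.23 with TMM and total counts and -0.15 with loess offsets. TMM and total counts scale a library by a single factor, so their equal gap follows from the method.

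Position and level were also read together. Within 2 Mb of centromere centres, the median difference lay between 0.73 and 1.40 in all 10 equal groups by unheated level, and within 2 Mb of the ends between -1.50 and -0.15. Arm regions ran from -0.99 to 0.23 over the 10 groups. Width rose with level, so a grouping by width is not independent of that by level. The median difference was -0.78 in the widest 10%, which had a median width of 688 bases. In the narrowest 10%, with a median width of 73 bases, it was 0.26.

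**Figure D4:**
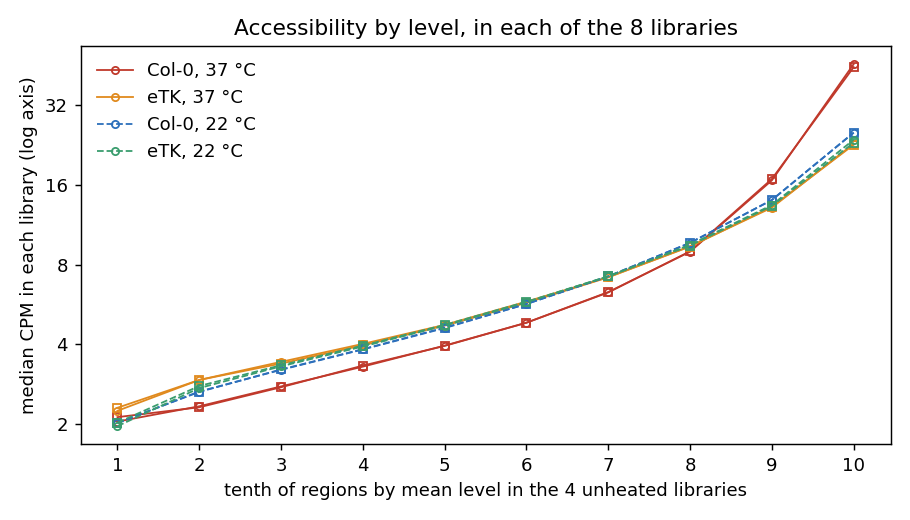
Median CPM (log axis) in each of the 8 libraries for 10 equal groups of regions ordered by mean level in the 4 unheated libraries, regions set apart included; circles are replicate 1 and squares replicate 2. Heated Col-0 lies below the other libraries in the groups 2 to 8 and reaches 45.5 and 44.3 CPM in the highest group, where the other 6 libraries lie between 22.6 and 25.1 CPM.

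A stretch of chromosome 2 from 3242091 to 3509764, 267.7 kb long, went against its centromeric surroundings. It was bounded by the first and last region over 4-fold lower in heated eTK there, so its heated difference is a description. The reference chromosome 2 is known to carry an insertion of mitochondrial DNA near its centromere, and whether the reads of this stretch came from the nucleus or from mitochondria was not tested. Its 161 regions summed to 9890.4 and 8765.6 CPM in heated Col-0 and to 623.8 and 568.4 CPM in heated eTK, against 801.2 and 876.7 CPM in unheated Col-0 and 498.4 and 527.0 CPM in unheated eTK. Heated Col-0 was far above the other 6 libraries. The stretch took 0.689% and 0.627% of all counts in heated Col-0 and 0.0709% and 0.0652% in heated eTK. Its median heated difference was -4.18, with 159 of its 161 regions lower and 2 higher, against 37.9% and 37.3% of all regions. Its median unheated difference was -0.75, with 127 of the 161 called lower, against 13.4% of all regions. Within 200 kb before and after it, 161 and 164 regions had medians of 1.87 and 1.62. Total count scaling left the median of the stretch at -3.49.

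**Figure D5:**
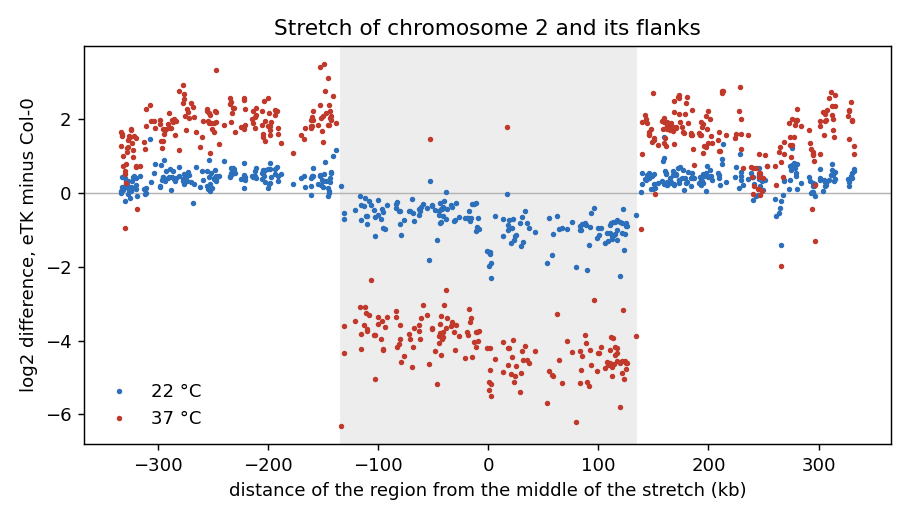
Log2 difference between eTK and Col-0 for each region by distance from the middle of the chromosome 2 stretch (kb), heated (red) and unheated (blue); the grey band marks the stretch. Heated differences have a median of -4.18 inside the band and of 1.87 and 1.62 in its flanks.

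The 1076 regions set apart had next to no counts in heated eTK either. Both heated eTK libraries held 0 counts in 900 of them, all 4 eTK libraries held 0 in 801, and the highest sum over both heated eTK libraries was 14. In heated Col-0 they held from 2 to 1265 counts in replicate 1, with a median of 38, and from 2 to 1461 in replicate 2, with a median of 46. All 1076 were lower in heated eTK, and since the unheated libraries that chose them come from the same line, this count is a description. Regions just inside the limit, with 2 to 3 unheated eTK counts, had a median heated eTK sum of 0, and those just outside, with 4 to 5, a median of 4.

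The regions set apart were clustered. Chromosome 5 held 615 and chromosome 4 held 364, with 55 on chromosome 3, 42 on chromosome 1 and 0 of the 19053 regions of chromosome 2. Those of chromosome 4 lay in its first 11 Mb, and 614 of the 615 of chromosome 5 in its first 18 Mb. They fell into 410 runs of adjacent regions, 218 of them single regions, and 528 regions lay in 68 runs of at least 5. Centromeric positions held 53.9% of them, against 14.7% of all regions. Their median Col-0 heat response was -0.77, with 10.2% higher and 64.1% lower against 34.4% and 33.1% of all regions, beside a median of -0.81 over all centromeric regions.

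The most covered region set apart lay on chromosome 1 from 3332667 to 3333444, with 1265 and 1461 counts in heated Col-0 and 0 in all 4 eTK libraries. On chromosome 4, the region from 5618097 to 5618886 had 1137 and 1124 counts in heated Col-0 and 0 in all 4 eTK libraries. On chromosome 5, the region from 15334121 to 15336095 had 774 and 960 counts in heated Col-0, 0 in both heated eTK libraries and 2 in a single unheated one. Also on chromosome 5, the regions from 14586025 to 14586905 and from 5914851 to 5915271 had a single heated eTK library with 2 counts.

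The 8 lowest heated differences by the rule that kept regions over the limit were of the same kind, with 4 counts or more over both unheated eTK libraries. In 7 of them both heated eTK libraries held 0 counts. In the most covered of these 7, on chromosome 5 from 5924052 to 5924818, heated Col-0 held 1083 and 1233 counts. The eighth, on chromosome 5 from 8085127 to 8086413, had 561 and 710 counts in heated Col-0 and 0 and 4 in heated eTK. Of these 8 regions, 7 lay on chromosome 5, and all 8 were lower in unheated eTK too.

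Windows of 1 Mb without any region set apart gave like counts. In their 70707 regions, 75.8% passed in the heated comparison, 16.2% over 2-fold higher and 25.3% over 2-fold lower. In the 47 windows that hold a region set apart, the regions not set apart passed in 73.5%, with 10.9% over 2-fold higher and 30.5% over 2-fold lower. In the windows without, the centromeric median was 1.38, the arm median 0.13 and the end median -0.77. In whole seedlings, a region open in more nuclei and a region more open in each nucleus cannot be told apart.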

How the data were processed

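The deposited values are raw counts of reads per accessible region, without normalization, per the file headers. Per the submitters' processing notes the tools, named without order or settings, include MACS2 2.2.7.1, Bowtie2 2.4.4, Subread 2.0.6 with featureCounts, and fastp 0.24.0. The genome build, the treatment of duplicates and whether starts count from 0 or 1 are not given in the sources used here.

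All 8 Arabidopsis libraries were fitted together with edgeR 4.0.16 (limma 3.58.1, R 4.3.3), 1 mean per group, TMM factors and the two-sided quasi-likelihood F test. For each contrast, Benjamini-Hochberg adjustment ran across the 110628 regions, with a threshold of 0.05. The filterByExpr filter removed 0 regions. The SE is the size of the log2 difference divided by the square root of F, and per-replicate values stand in place of an SD at n = 2. Counts were even in a share of 0.503 to 0.567 of regions per library, most in heated Col-0, so 2 counts may be 1 fragment, and no fold is given against a group at 0. Centromere centres are approximate textbook positions.

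For a region to be named, its mean count over the heated libraries was at least 50; such regions passed the threshold, were not set apart and had heated pairs that did not overlap; the 8 highest and 8 lowest differences and the 5 highest and 5 lowest interactions were taken, and the 5 regions set apart with most heated Col-0 counts. The regions with counts in eTK and the outer regions were added after values had been seen. Members, lists and rules were chosen with earlier results of these data known. Replicate numbers did not pair the samples, as 0 of 6 correlations of deviations exceeded 0.1. The method was run on simulated data in which few regions differed between the heated genotypes. That run cannot test the scaling where most regions differ. Alternatives were DESeq2 1.42.0, other scalings, no filter, the heated libraries alone, a replicate block, leaving out each library, other compartment sizes and other limits for setting regions apart.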

Additional observations from a re-analysis of the deposited data

Results flagged for a closer look

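The genotype difference at 37 °C departed from that at 22 °C in 64977 regions by the interaction test in edgeR. Among the regions named for their interaction with over 3 counts in every group, the eTK heat response exceeded that of Col-0 by 4.13 on the log2 scale on chromosome 5 from 11470193, by 3.56 on chromosome 4 from 3588050, by 3.54 on chromosome 4 from 3422053, by 3.50 on chromosome 3 from 13284563 and by 3.37 on chromosome 2 from 4236251. These 5 rest on 4 to 8 counts over both heated Col-0 libraries. On chromosome 2 from 3404918 to 3405007, inside the stretch described above, the interaction was -4.58 ± 0.53 (adjusted p = 9.81e-13), with 13.6 and 12.4 CPM in heated Col-0 and 0.265 and 0.343 CPM in heated eTK. The other 4 regions with the lowest interactions had 0 counts in heated eTK and 4 over both unheated eTK libraries, so their interactions are not printed.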

How the results depend on the processing

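With total count scaling, 67719 regions were higher in heated eTK, 46534 over 2-fold higher and 12926 over 2-fold lower, and with TMM factors from arm regions 24816 were over 2-fold higher. The centromeric median was 1.10 with DESeq2, 1.85 with total counts, 1.05 with loess offsets, 1.41 with factors from arm regions, 1.60 with a limit of 1 Mb, 0.82 with 3 Mb and 1.38 in windows without a region set apart. In the same order the arm median was -0.01, which reversed it, 0.75, 0.03, 0.30, 0.10, 0.03 and 0.13. The end median was -0.02 with total counts, -0.54 with loess offsets, -0.46 with factors from arm regions, -0.94 with 1 Mb and -0.80 with 3 Mb. The cause was not tested. Leaving out each library in turn gave 76044 to 82716 regions in the heated comparison, 59510 to 62817 interactions and 11784 to 25763 unheated calls. The unheated count was 11784 and 12726 without unheated Col-0 replicates 1 and 2, and 14103 and 13147 without those of eTK; a group left with 1 library was assumed to vary like the others. A replicate block gave 83235 heated calls, 22935 unheated calls and 65049 interactions, while the numbers did not pair the samples. DESeq2 called 75377 regions in the heated comparison and 3452 in the eTK heat response, against 8772. In the eTK heat response it gave 49331 regions no adjusted p. No filter changed nothing, as it removed 0 regions. Every named region kept its direction and its call in the heated comparison under all 720 combinations of region and alternative. These regions were picked as extremes from the same libraries, so this was close to fixed in advance and does not cover the other calls. Limits of 0 and 10 counts set apart 925 and 1223 regions. The window around listed genes was not run, since no annotation was used. Depth limits differences where heated Col-0 holds few counts.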
